A study of Homo sapiens with 6 samples.

Results

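The genes described here are the chromosome 19 zinc finger genes, taken as the rows of the gene table that map to a protein-coding gene on chromosome 19 with a symbol that starts with ZNF and a digit. By this rule 249 of the 79302 rows are members, from GENCODE release 29 on GRCh38. RNA-seq was done on HCT116, an established human line from a colorectal cancer, with 6 libraries. All of them come from radioresistant cells that received 4 Gy of irradiation and were taken 6 h later, so both groups share the irradiation and no unirradiated cells are compared. The 3 libraries of the shCtrl group carried a control shRNA and the 3 libraries of the shGDPD5 group an shRNA against GDPD5, a glycerophosphodiester phosphodiesterase, and the labels give neither the shRNA sequence nor the irradiation. Separate cultures for the libraries of a group are not stated anywhere in the sources, and the p-values then measure the spread between these libraries, which may be technical.

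Most of these genes encode KRAB zinc finger proteins, a class of DNA-binding repressors that grew by repeated duplication and now sits in tandem blocks along chromosome 19. A row of C2H2 zinc fingers reads the DNA, often within a retrotransposon, and the KRAB box recruits the scaffold protein TRIM28 (KAP1). TRIM28 in turn brings in the histone methyltransferase SETDB1, heterochromatin proteins and histone deacetylases, which lay down repressive chromatin.

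The longest coding sequence of 248 members could be translated from GENCODE, and it held a median of 12 C2H2 fingers, with a range of 0 to 36. The most conserved letters of the KRAB box (leucine, tyrosine, any 2 residues, valine, methionine, any residue, glutamate) were found in 192 of them. Diverged or truncated boxes escape these letters, so their absence says only that the letters are not there.

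Total counts lay between 16715447 and 18510670 per library. GDPD5, the targeted gene, was at 8.33, 11.6 and 9.75 CPM with shCtrl against 5.44, 5.55 and 5.19 CPM with shGDPD5. All 3 shGDPD5 libraries were below all 3 shCtrl libraries, with a log2 fold change of -0.88 ± 0.13 (SE) and an adjusted p of 1.16e-04 in edgeR's quasi-likelihood test. CPM here means counts scaled to the library total after TMM, fold changes are shGDPD5 over shCtrl, and a gene rose or fell where the Benjamini-Hochberg adjusted p over all 16755 tested genes was under 0.05. The library shCtrl 1 stood apart from the other 2 shCtrl libraries on the second principal component, which held 8.29% of the variance. The epithelial markers EPCAM, CDH1, KRT8, KRT18 and KRT19 were at 121 to 1258 CPM in every library and all 5 were lower in shGDPD5, by log2 fold changes of -0.16 to -0.83. CEACAM5, on the same list, had 1 count in 1 library. Of the markers of blood, endothelial and stromal cells, CD3E and COL1A2 had no counts, PTPRC, PECAM1 and VWF had at most 8 counts in a library, and COL1A1 lay between 18.8 and 23.5 CPM in both groups. The mitochondrial protein-coding genes took 8.99% to 9.34% of the counts in shCtrl and 10.05% to 10.7% in shGDPD5, and the part of this and of the lower epithelial markers in the differences below was not tested.

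Enough counts for a test were found in 170 of the 249 members. Another 25 had no count in any library, and 54 had some counts but too few, with at most 15 in any library. In 10 of the 170 tested members the mean count of 1 group was under 10, so that they passed the filter mainly through the other group, and 3 of these 10 were called. The tested members had fewer counts than most genes, with a median of 8.32 CPM against 17.03 CPM for all tested genes.

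Members rose and fell in similar numbers after GDPD5 knockdown. Of the 170 tested members 37 rose (21.8%) and 46 fell (27.1%), against 29.7% higher and 30.1% lower among all tested genes, so both shares were below the background. The shares differed with level. Members with a mean of at least 5 CPM gave 29 higher (27.6%) and 36 lower (34.3%) of 105. Those under 5 CPM gave 8 higher (12.3%) and 10 lower (15.4%) of 65 tested. The part of the lower counts of members in these shares was not tested. The median log2 fold change of the tested members was 0.00, and that of all tested genes 0.01. In bulk RNA, fewer cells of a type and less RNA per cell cannot be told apart. Of the 83 members called, 76 had an absolute log2 fold change under 1. Among all tested genes, 8012 of the 4971 higher and 5035 lower genes together did. The study names a t test and also gives a further fold-change threshold, so the next calls, which use the edgeR p, are not its own. At the thresholds of the study (unadjusted p under 0.05, absolute log2 fold change of 1 or more), 3 members were higher and 4 lower. Among all tested genes 5.38% were higher and 6.60% lower. Without a filter 7 members were higher, and without shCtrl 1 there were 5. Without shGDPD5 2 there were 2 members lower, and with 10 counts required in every library 1. The 3 higher members were ZNF738, ZNF506 and ZNF431. The 4 lower members were ZNF615, ZNF432, ZNF20 and ZNF837, of which only ZNF615 averaged over 1 CPM, and ZNF20 and ZNF837 are named because the count is small. ZNF20 had 16, 11 and 21 counts with shCtrl against 6, 9 and 1 with shGDPD5. ZNF20, ZNF432 and ZNF837 are the 3 called members that passed the filter mainly through 1 group. That group was shCtrl, where they were high. ZNF20, ZNF432 and ZNF837 were each tested in 13 of the 14 alternative fits.

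ZNF genes on other chromosomes gave 47 higher and 72 lower of 218 tested, with a median log2 fold change of -0.06. The other protein-coding genes of chromosome 19 gave 295 higher and 214 lower of 786 tested, with a median of 0.12. Only 5 of 15 zinc finger genes of chromosome 19 with other names (ZFP, ZSCAN, ZIM, ZIK and ZKSCAN) were tested, and 1 of them was lower. These sets were compared by their counts alone.

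The summed CPM of all 249 members, tested or not, came to 2454, 2260.4 and 2282 CPM with shCtrl, and to 2185, 2217 and 2198 CPM with shGDPD5. Every shGDPD5 library was below every shCtrl library, and the mean was 94.3% of that of shCtrl. ZNF146 alone made up 15.1% of the shCtrl sum. Without it the sums were 2078, 1922 and 1943 CPM in shCtrl and 1951, 1981 and 1963 CPM in shGDPD5, and the groups overlapped. With plain CPM, which leaves out the TMM scaling, the sum of all members in shGDPD5 was 98.3% of that of shCtrl, and the groups overlapped.

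Higher and lower calls were spread unevenly along the chromosome. Over all tested genes the shares were 29.7% higher and 30.1% lower. Members whose starts lie within 1 Mb of a neighbour were joined, which gave 16 blocks, numbered from the end of the short arm. In block 5, the block of the short arm nearest to the centromere (chr19:19668796-24129961), 12 of 16 tested members rose and none fell, with a median log2 fold change of 0.54. In block 9 on the long arm (chr19:36182060-37817300), 6 of 13 tested members fell and none rose, with a median of -0.41. The grouping by position was set with earlier results of these data known. These 2 blocks were picked after their values were seen, so no test of them is given.

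**Figure D1:**
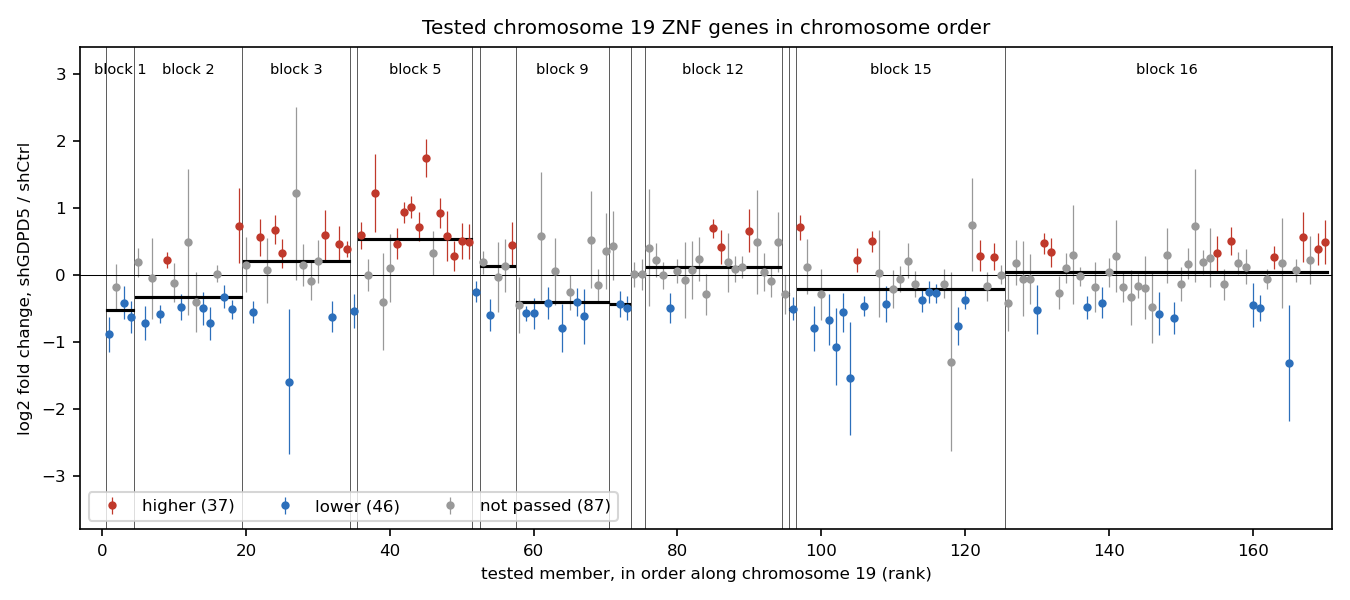
Log2 fold change (shGDPD5 over shCtrl, y axis) of the 170 tested members in their order along chromosome 19 (x axis, rank), with 95% intervals from edgeR. Thin vertical lines separate the blocks (block 6 has no tested member), those with at least 4 tested members other than block 8 are named, and thick horizontal lines are block medians. The 12 called members of block 5 all lie above 0, and the 6 called members of block 9 all lie below it.

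Block 5 holds 37 members, of which 21 were not tested, 10 of them with no count at all. Its genes are known as a family of tandem duplicates, and their promoter windows were alike. RefSeq promoter windows of 300 bases (250 before and 50 after the start, GRCh38.p14) were found for 217 of the 249 members, 29 of them in block 5. Aligned with the window of ZNF714, the 28 other promoters of block 5 were identical at a median of 81.3% of the 300 bases, and 26 of 28 were above 60%. Among the 188 promoters of members elsewhere the median was 52.0%, and 24 were above 60%. The stretches of 150 bases printed here lie upstream of the GENCODE gene and were chosen to let the shared letters be seen, with 4 members of block 5 that rose, then ZNF440, which rose in block 3, and ZNF554, which fell in block 1. Capitals mark CCAAT on either strand and the longer run ATCCAATCAG around it.

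ZNF714: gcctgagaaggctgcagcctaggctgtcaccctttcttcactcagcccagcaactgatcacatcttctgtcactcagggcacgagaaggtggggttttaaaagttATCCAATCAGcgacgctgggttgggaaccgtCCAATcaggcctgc
ZNF431: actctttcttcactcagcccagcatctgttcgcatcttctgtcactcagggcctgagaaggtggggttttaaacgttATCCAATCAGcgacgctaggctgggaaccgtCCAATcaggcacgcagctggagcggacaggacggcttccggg
ZNF100: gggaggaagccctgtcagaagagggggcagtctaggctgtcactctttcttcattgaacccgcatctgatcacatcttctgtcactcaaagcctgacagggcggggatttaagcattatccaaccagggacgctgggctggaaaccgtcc
ZNF708: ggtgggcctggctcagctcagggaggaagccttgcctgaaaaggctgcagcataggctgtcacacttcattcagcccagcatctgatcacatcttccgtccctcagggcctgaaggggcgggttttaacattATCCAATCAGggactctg
ZNF440: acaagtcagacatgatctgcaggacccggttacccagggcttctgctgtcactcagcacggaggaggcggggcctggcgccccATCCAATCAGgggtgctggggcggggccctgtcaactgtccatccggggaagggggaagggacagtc
ZNF554: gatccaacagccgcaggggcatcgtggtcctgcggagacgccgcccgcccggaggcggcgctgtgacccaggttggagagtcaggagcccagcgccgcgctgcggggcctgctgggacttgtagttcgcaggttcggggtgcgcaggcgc

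The stretches are written 5′ to 3′ and come from chr19:21082009-21082158 on the plus strand for ZNF714, chr19:21141874-21142023 on the plus strand for ZNF431, chr19:21767629-21767778 on the minus strand for ZNF100, chr19:21329426-21329575 on the minus strand for ZNF708, chr19:11814123-11814272 on the plus strand for ZNF440 and chr19:2819718-2819867 on the plus strand for ZNF554. The full window of ZNF431 was identical to that of ZNF714 at 91.0% of its bases, that of ZNF100 at 81.3% and that of ZNF708 at 68.3%, against 60.7% for ZNF440 and 48.7% for ZNF554.

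The run ATCCAATCAG, the longest that the upstream windows of ZNF714, ZNF431, ZNF708 and ZNF440 share around CCAAT, was searched on both strands after the sequences had been seen, and each match also holds a CCAAT. It was in 15 of the 29 promoters of block 5 (51.7%) and in 15 of the 188 others (7.98%), against 123 of all 35116 promoters (0.350%). Of the 15 outside block 5, 14 were in block 3 and the other was that of ZNF77. Outside block 5 the run was in 4 of the 23 promoters of members that rose and in 3 of the 42 of members that fell. Those 3 were ZNF77, ZNF627 and ZNF564. Within block 5 the run was in 4 of the 10 promoters of members that rose, in 2 of the 4 that did not pass, and in 9 of the 15 of untested members, so members with the run were not limited to those that rose. ZNF714, ZNF431, ZNF708 and ZNF440, all of which rose, hold the run by its definition, and the shares given here include them. The shorter CCAAT was in all 29 promoters of block 5, in 46.8% of the other members and in 34.6% of all promoters. A match is a description of the letters and says nothing of a factor.

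ZNF738 showed the largest increase of all tested members. It was at 4.601, 3.33 and 3.69 CPM with shCtrl against 13.5, 13.6 and 11.8 CPM with shGDPD5. The groups did not overlap, and the log2 fold change was 1.74 ± 0.13 (SE), adjusted p = 2.25e-07. Groups apart were part of the rule for the 10 higher and 10 lower named members, so for them this was fixed, here and below. Without overlap, 44 of the 170 tested members were higher and 50 lower, against 5453 and 5426 of the 16755 tested genes. Its longest annotated coding sequence holds the KRAB letters and no C2H2 finger (chr19:21358930-21379302, plus strand).

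ZNF431, known as a repressor of the Hedgehog receptor gene PTCH1, was at 15.2, 14.2 and 14.5 CPM with shCtrl against 27.6, 31.5 and 29.4 CPM with shGDPD5. Its log2 fold change was 1.02 ± 0.08, adjusted p = 2.10e-07 (chr19:21142024-21196053, plus strand). Its neighbour ZNF714, the member of the block with the highest CPM, was at 27.97, 24.5 and 24.9 CPM with shCtrl against 46.01, 50.3 and 50.8 CPM with shGDPD5. Its log2 fold change was 0.93 ± 0.07, adjusted p = 2.18e-07 (chr19:21082159-21125270, plus strand). In both genes the lowest shGDPD5 library was far above the highest shCtrl library.

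ZNF100 was at 8.69, 7.17 and 7.497 CPM with shCtrl against 14.1, 15.6 and 14.6 CPM with shGDPD5, with a log2 fold change of 0.93 ± 0.10 and an adjusted p of 7.13e-06. ZNF708 was at 8.26, 7.13 and 7.92 CPM with shCtrl against 12.6, 12.97 and 12.7 CPM with shGDPD5, with a log2 fold change of 0.72 ± 0.10 and an adjusted p of 4.21e-05. ZNF506 was scarce, at 0.641, 0.742 and 0.927 CPM with shCtrl against 1.64, 1.53 and 2.21 CPM with shGDPD5, with a log2 fold change of 1.22 ± 0.27 and an adjusted p of 0.00175. All 3 genes were named by the rule that asks for groups without overlap.

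The other members of block 5 that rose were ZNF101 (0.59), ZNF724 (0.57), ZNF675 (0.50), ZNF254 (0.49), ZNF430 (0.46) and ZNF91 (0.28), all as log2 fold changes. ZNF91 is known for silencing SVA retrotransposons in primates, and it was at 10.6, 9.89 and 8.52 CPM with shCtrl against 12.1, 11.7 and 11.7 CPM with shGDPD5. Its increase was the smallest of the 12 and its adjusted p was 0.0309, which rose above 0.05 under 8 of the alternatives, with values up to 0.146. ZNF675, which binds the signalling protein TRAF6, was at 4.203, 4.01 and 4.44 CPM with shCtrl against 5.92, 6.24 and 5.75 CPM with shGDPD5, with all shGDPD5 libraries higher.

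The members of block 5 that did not pass were ZNF14 (-0.01 ± 0.11), ZNF66 (-0.40 ± 0.34), ZNF85 (0.10 ± 0.23) and ZNF493 (0.33 ± 0.15), again as log2 fold changes with SE. ZNF14 was at 8.97, 7.62 and 8.48 CPM with shCtrl against 7.83, 9.02 and 8.06 CPM with shGDPD5, and its groups overlapped. ZNF93, the member of this family known for silencing LINE-1 elements, had no count in any library. The summed CPM of all 37 members of the block, tested or not, was 127, 112 and 113 CPM with shCtrl against 189, 201 and 194 CPM with shGDPD5. In shGDPD5 it was 166% of that of shCtrl, and the groups lay far apart. Of the 6 other genes tested in the interval, none of which is protein coding, 1 rose and none fell, with a median log2 fold change of 0.16.

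**Figure D2:**
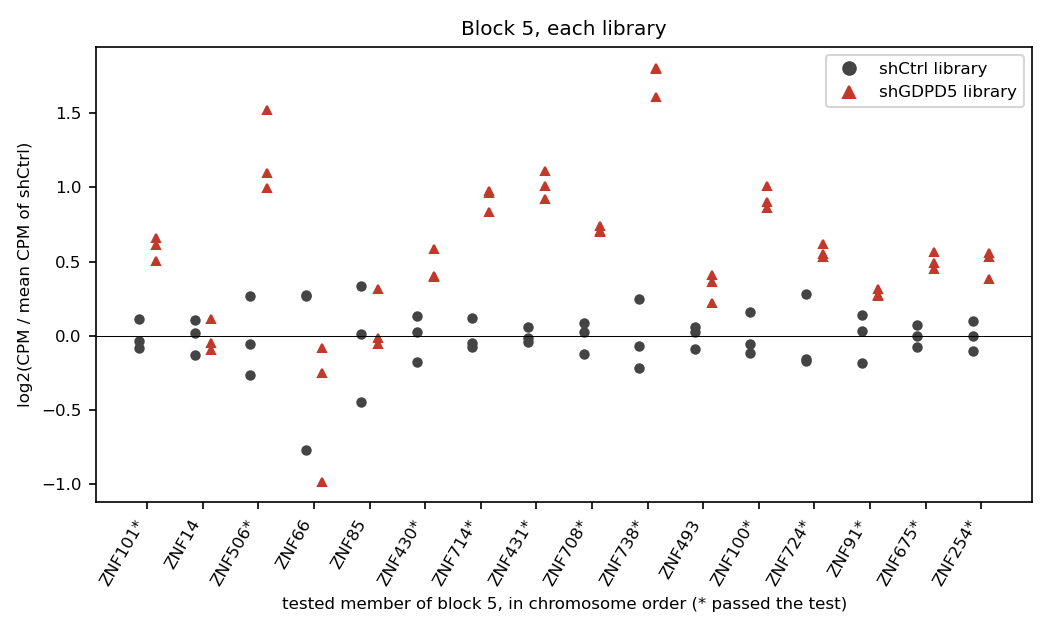
CPM of each library over the mean of the shCtrl libraries (log2, y axis) for the 16 tested members of block 5 in chromosome order (x axis), with circles for shCtrl and triangles for shGDPD5 libraries. In the 12 members marked with an asterisk, every triangle lies above every circle, and in ZNF14, ZNF66 and ZNF85 they overlap.

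Reads of such near copies can be shared, and the sources used here do not state how the deposited counts split them. For each gene the transcript with the longest coding sequence was read in 31-base words, so other exons of the gene are not covered. The share of these words that also occur in another gene had a median of 25.1% over the members of block 5 and 11.8% over all members. It was 4.68% for ZNF738, 17.2% for ZNF431, 21.7% for ZNF714, 22.04% for ZNF708, 34.3% for ZNF100 and 65.7% for ZNF724. Over all members, those with under 10% of shared words gave 13 higher and 23 lower of 81 tested, and those with 30% or more gave 12 higher and 8 lower of 35 tested.

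Block 9 was led by ZNF146 (chr19:36214602-36238774, plus strand), the most abundant member of all. The protein consists almost wholly of zinc fingers, lacks a KRAB box and is known for high levels in colorectal tumours. It was at 376, 339 and 339 CPM with shCtrl against 234, 235 and 236 CPM with shGDPD5. The groups did not overlap, and the log2 fold change was -0.58 ± 0.05, adjusted p = 7.09e-07. Its exons overlap those of ZNF565 on the other strand, and ZNF565 was at 2.67 CPM on average.

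The other members of block 9 that fell were ZNF585A (-0.80), ZNF527 (-0.62), ZNF566 (-0.58), ZNF567 (-0.42) and ZNF383 (-0.41), as log2 fold changes. ZNF585A was at 7.08, 5.33 and 6.52 CPM with shCtrl against 3.57, 4.302 and 2.999 CPM with shGDPD5, with its groups apart and an adjusted p of 0.00115. The 7 members that did not pass ran from a log2 fold change of -0.45 in ZNF565 to 0.58 in ZNF461, which was near 1 CPM. Another 13 members of the block were not tested. Among them ZNF420, a negative regulator of p53 also called Apak, had no count in any library, and ZNF382 and ZNF569, known as repressors of growth signalling, had 8 and 5 counts in all. The 6 other genes tested in the interval gave 1 higher and 0 lower, with a median of 0.12. Of these, 3 are protein coding, and none of the 3 was called.

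In blocks 1, 2 and 15 more members fell than rose. The shares below stand beside 29.7% higher and 30.1% lower among all tested genes. Block 2 (chr19:7069444-9793180) had 2 members higher (13.3%) and 7 lower (46.7%) of 15 tested, with a median log2 fold change of -0.33. Its 38 other tested genes gave 8 higher and 7 lower with a median of 0.04. Block 15 (chr19:51571298-53580269) had 5 higher (17.2%) and 12 lower (41.4%) of 29 tested, with a median of -0.22. Block 1 (chr19:2819874-2944971) had 3 lower of 4 tested. Block 3 (chr19:11483427-12640098), where the run ATCCAATCAG recurred, had 6 higher and 3 lower of 15 tested, with a median of 0.20. The 4 other genes tested in that interval all rose, with a median of 0.72, and the 2 protein-coding ones had a median of 0.41. Some genes of this interval share exons with members, so their counts may not be separate. Block 12 had 3 higher (15.8%) and 1 lower (5.26%) of 19 tested, with a median of 0.12. Block 16 had 8 higher and 8 lower of 45 (17.8% each), with a median of 0.04. Both blocks were below the shares of all tested genes in each direction. The other 8 blocks held at most 5 tested members each.

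The members of block 3 that rose were ZNF440 (0.67), ZNF443 (0.59), ZNF823 (0.56), ZNF490 (0.46), ZNF791 (0.38) and ZNF700 (0.32), and those that fell were ZNF20 (-1.60), ZNF564 (-0.63) and ZNF627 (-0.56), as log2 fold changes. In block 15 the members that rose were ZNF175 (0.71), ZNF480 (0.50), ZNF845 (0.28), ZNF765 (0.27) and ZNF616 (0.22), and those that fell were ZNF432 (-1.55), ZNF615 (-1.07), ZNF649 (-0.80), ZNF816 (-0.77), ZNF350 (-0.67), ZNF614 (-0.56), ZNF766 (-0.46), ZNF808 (-0.44), ZNF28 (-0.38), ZNF160 (-0.38), ZNF320 (-0.28) and ZNF468 (-0.25). In block 12 ZNF224 (0.70), ZNF235 (0.66) and ZNF225 (0.41) rose and ZNF283 (-0.50) fell. In block 16 ZNF132 (0.57), ZNF814 (0.50), ZNF446 (0.48), ZNF580 (0.47), ZNF324 (0.38), ZNF581 (0.33), ZNF552 (0.32) and ZNF8 (0.26) rose and ZNF837 (-1.32), ZNF134 (-0.65), ZNF416 (-0.58), ZNF784 (-0.52), ZNF274 (-0.49), ZNF805 (-0.49), ZNF329 (-0.45) and ZNF543 (-0.42) fell. ZNF20 and the read-through gene ZNF625-ZNF20 share exons, and their log2 fold changes were -1.60 ± 0.50 and 1.22 ± 0.59 at means of 0.608 and 0.700 CPM. These lists name every called member of the block whatever its size. In block 15, ZNF468 shares exon positions on the same strand with both ZNF28 and ZNF320. Of the 31-base words of ZNF320, 99.5% occur in another gene, so these falls may not be separate. ZNF432, ZNF649, ZNF808 and ZNF816 each share exon positions with another gene on the same strand too. The falls of ZNF20, ZNF432 and ZNF837 were measured at means not over 1 CPM, and these genes passed the filter mainly through shCtrl.

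ZNF554 at the end of the short arm showed the largest decrease among members above 5 CPM. It was at 7.28, 7.55 and 8.002 CPM with shCtrl against 4.28, 4.27 and 3.79 CPM with shGDPD5, with a log2 fold change of -0.89 ± 0.12 and an adjusted p of 4.40e-05. ZNF77, at the other end of block 1, was at 10.2, 11.2 and 10.9 CPM with shCtrl against 7.48, 7.31 and 6.15 CPM with shGDPD5, with a log2 fold change of -0.63 ± 0.11. In both genes every shGDPD5 library was below every shCtrl library.

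In block 2 ZNF558, a repressor of the mitophagy gene SPATA18, fell. It was at 54.6, 50.3 and 48.8 CPM with shCtrl against 34.1, 34.3 and 33.8 CPM with shGDPD5, with a log2 fold change of -0.59 ± 0.06 and an adjusted p of 3.77e-06. ZNF426 fell by 0.73 and ZNF358 by 0.72 on the log2 scale, from 9.098 ± 0.397 to 5.49 ± 0.370 CPM and from 10.3 ± 1.09 to 6.28 ± 0.476 CPM (SD, n = 3). ZNF846, in the same block, rose by 0.73 on the log2 scale from a mean of 0.844 CPM, with an adjusted p of 0.0269 that rose above 0.05 under 5 alternatives, to at most 0.158. ZNF317, at 48.7, 45.7 and 48.5 CPM with shCtrl against 56.7, 55.4 and 54.6 CPM with shGDPD5, rose slightly, with a log2 fold change of 0.22 ± 0.05.

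Within block 15 the run of genes from ZNF649 to ZNF432 held 6 members, of which ZNF649, ZNF350, ZNF615, ZNF614 and ZNF432 fell and ZNF613 did not pass (-0.29 ± 0.17). ZNF615 was at 1.75, 2.03 and 1.79 CPM with shCtrl against 0.818, 0.640 and 1.18 CPM with shGDPD5, with a log2 fold change of -1.07 ± 0.27. ZNF649, a repressor of serum response and AP-1 reporters, was at 6.17, 5.76 and 4.61 CPM with shCtrl against 3.098, 2.99 and 3.38 CPM with shGDPD5, with a log2 fold change of -0.80 ± 0.15. ZNF350, also called ZBRK1, a BRCA1 partner that represses GADD45A, was at 3.14, 3.22 and 3.92 CPM with shCtrl against 1.99, 2.295 and 2.14 CPM with shGDPD5, with a log2 fold change of -0.67 ± 0.17 and an adjusted p of 0.00515. All 3 genes were at low levels, and groups apart were part of the rule that named them. ZNF432, which takes part in DNA repair, had the lowest CPM of them, with 70 counts in all libraries together. Its log2 fold change was -1.55 ± 0.39, and it passed the filter mainly through shCtrl, the group where it was high.

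ZNF816, further along block 15, was at 8.996, 9.48 and 8.61 CPM with shCtrl against 5.81, 5.84 and 4.29 CPM with shGDPD5, with a log2 fold change of -0.77 ± 0.13, and it shares exons with its read-through gene ZNF816-ZNF321P. ZNF808, which silences MER11 repeats and is needed for pancreas development, was at 13.5, 11.8 and 11.4 CPM with shCtrl against 9.08, 7.63 and 10.4 CPM with shGDPD5, with a log2 fold change of -0.44 ± 0.12 and 45.4% shared words. ZNF175, the first gene of the block, went the other way. It was at 12.3, 10.5 and 11.97 CPM with shCtrl against 18.5, 18.9 and 19.4 CPM with shGDPD5, and its log2 fold change was 0.71 ± 0.09, adjusted p = 1.78e-05.

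**Figure D3:**
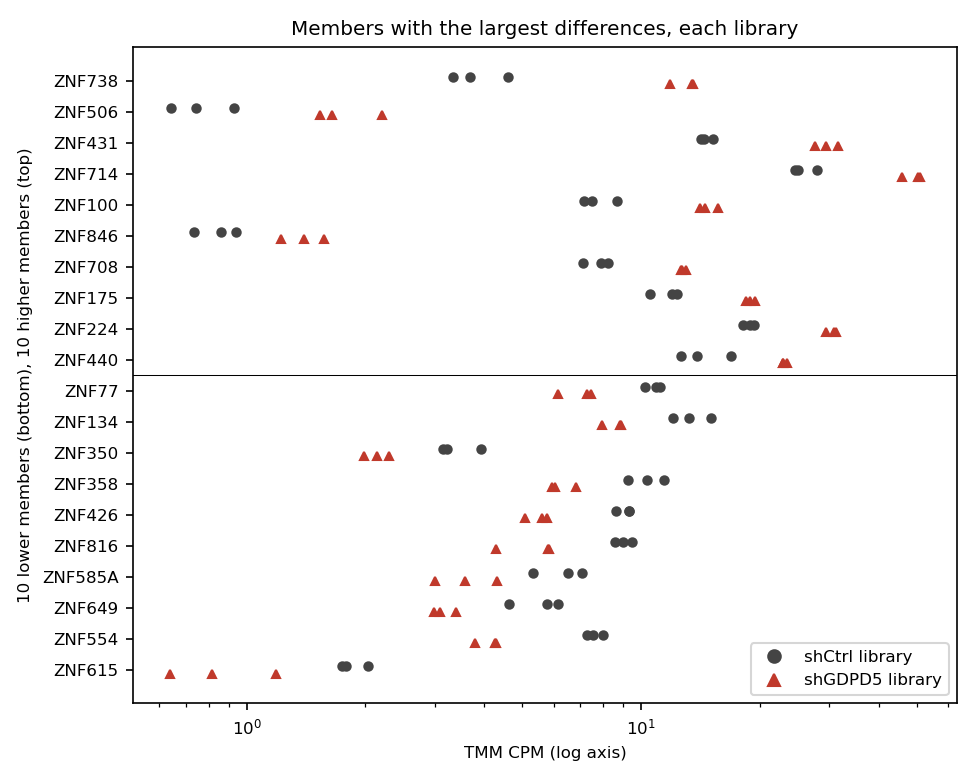
TMM CPM (log axis) of each library for the 10 members with the largest increase and the 10 with the largest decrease among those that passed the test at a mean of at least 1 CPM with groups that did not overlap, a rule that fixes their separation. Circles are shCtrl and triangles shGDPD5 libraries, and levels run from 0.641 CPM in ZNF506 to 50.8 CPM in ZNF714.

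ZNF224, a cofactor of the Wilms tumour protein WT1 and a repressor of the aldolase A gene, rose in block 12. It was at 19.4, 18.9 and 18.1 CPM with shCtrl against 30.9, 29.4 and 31.1 CPM with shGDPD5, with a log2 fold change of 0.70 ± 0.07 and an adjusted p of 1.75e-06. Its groups were well apart, and 49.7% of its words are shared, mostly with an antisense gene. ZNF440 in block 3 was at 16.9, 12.6 and 13.8 CPM with shCtrl against 23.5, 22.9 and 22.8 CPM with shGDPD5, with a log2 fold change of 0.67 ± 0.10.

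ZNF274, the protein that brings TRIM28 and SETDB1 to the 3′ ends of zinc finger genes on chromosome 19, fell. It was at 13.9, 12.9 and 13.5 CPM with shCtrl against 9.24, 9.89 and 9.53 CPM with shGDPD5, with a log2 fold change of -0.49 ± 0.09 and an adjusted p of 4.37e-04. ZNF473, part of the machinery that cuts the 3′ end of histone transcripts, fell too, at 27.6, 24.1 and 24.7 CPM with shCtrl against 16.7, 18.6 and 18.5 CPM with shGDPD5, with a log2 fold change of -0.51 ± 0.08. ZNF134 was at 15.1, 13.2 and 12.1 CPM with shCtrl against 7.95, 8.91 and 8.85 CPM with shGDPD5, with a log2 fold change of -0.65 ± 0.11. No group overlapped in these 3 genes, which for ZNF134 was part of the rule that named it. ZNF304 did not pass, with a log2 fold change of 0.04 (95% interval -0.18 to 0.25). ZNF331 had 3 counts in all and was not tested.

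Several of the most abundant members were nearly level. ZNF121 was at 154, 136 and 132 CPM with shCtrl against 144, 143 and 138 CPM with shGDPD5, with a log2 fold change of 0.01 (95% interval -0.12 to 0.14). ZNF264 had a log2 fold change of -0.02 (95% interval -0.17 to 0.12) and ZNF83 one of -0.06 (-0.25 to 0.12). ZNF587 averaged 34.5 ± 3.38 CPM with shCtrl and 38.8 ± 2.01 CPM with shGDPD5 (± SD, n = 3), with an adjusted p of 0.0708 that fell below 0.05 under 3 alternatives. ZNF507 fell by 0.26 on the log2 scale, from 62.1 ± 6.86 to 51.97 ± 1.36 CPM. Of the 87 tested members that did not pass, 38 had a 95% interval within 0.5 of 0 on the log2 scale, and for the others the interval reached past 0.5 in at least 1 direction. Per kilobase of exon, the mean level of ZNF146 was 70.7 CPM, followed by ZNF121 at 19.5 and ZNF428 at 10.9.

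Both directions were found in every class of protein make-up. Tested members with the KRAB letters gave 26 higher and 37 lower of 124, with a median log2 fold change of 0.01, and those without gave 11 higher and 9 lower of 45, with a median of 0.00. Members with 1 to 9 fingers gave 9 higher and 13 lower of 49, those with 10 to 14 gave 15 and 22 of 68, and those with 15 or more gave 12 and 11 of 50. Across the 169 tested members with a translated sequence, the Spearman correlation of the log2 fold change with the number of fingers was 0.03. These genes share exon sequence and the same 6 libraries and are not independent, so the correlation is given as a description. Exons of 140 members overlap those of another gene, 79 of them on the other strand, and it is not given whether the counting used strand. Of the 83 called members, 28 share exon positions with another gene on the same strand, ZNF431, ZNF506, ZNF585A and ZNF649 among them. The tested members without any overlap gave 16 higher and 21 lower of 74, and those with overlap 21 and 25 of 96.

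Most genes on a list of 16 corepressor and general heterochromatin genes, called corepressors here, rose. The list includes SUV39H1 and SUV39H2, so it is not confined to partners of KRAB proteins. All 16 were tested, and 11 rose and 3 fell, beside the 29.7% and 30.1% of all tested genes. Their median log2 fold change was 0.33. Their median level was 89.4 CPM against 17.03 CPM for all tested genes, and 12 of the called ones changed by under 1 on the log2 scale. The part of this higher level in the number of calls was not tested. TRIM28, the scaffold that the KRAB box binds, was at 230.3, 266 and 271 CPM with shCtrl against 376, 355 and 378 CPM with shGDPD5. All shGDPD5 libraries were higher, with a log2 fold change of 0.53 ± 0.06 and an adjusted p of 8.80e-06. SETDB1, the methyltransferase that it recruits, did not pass, with a log2 fold change of 0.12 ± 0.05 and an adjusted p of 0.0826.

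The heterochromatin proteins that read the mark rose. CBX1 was at 129, 119 and 124 CPM with shCtrl against 280.2, 286 and 283 CPM with shGDPD5, with a log2 fold change of 1.19 ± 0.05 and an adjusted p of 6.08e-10, and CBX3 (0.55) and CBX5 (0.38) rose less. SUV39H1, a methyltransferase of constitutive heterochromatin, was at 5.01, 4.95 and 5.63 CPM with shCtrl against 16.7, 16.1 and 15.3 CPM with shGDPD5, with a log2 fold change of 1.62 ± 0.10. Its groups did not overlap, and its relative SUV39H2 had a log2 fold change of 0.37.

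Among the deacetylase complex genes, HDAC1 (0.51) and CHD4 (0.37) rose, HDAC2 fell (-0.42), and CHD3 was at 0.01 ± 0.05. HDAC2 was at 224, 204 and 212 CPM with shCtrl against 159, 159.9 and 159 CPM with shGDPD5. The silencing complex known as HUSH, with its partner MORC2, was mixed, since MPHOSPH8 (0.28), PPHLN1 (0.29) and MORC2 (0.29) rose while TASOR fell (-0.30). ATF7IP, which stabilises SETDB1, had a log2 fold change of -0.16 ± 0.06 and an adjusted p of 0.0478, which rose above 0.05 under 10 alternatives, to at most 0.145.

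**Figure D4:**
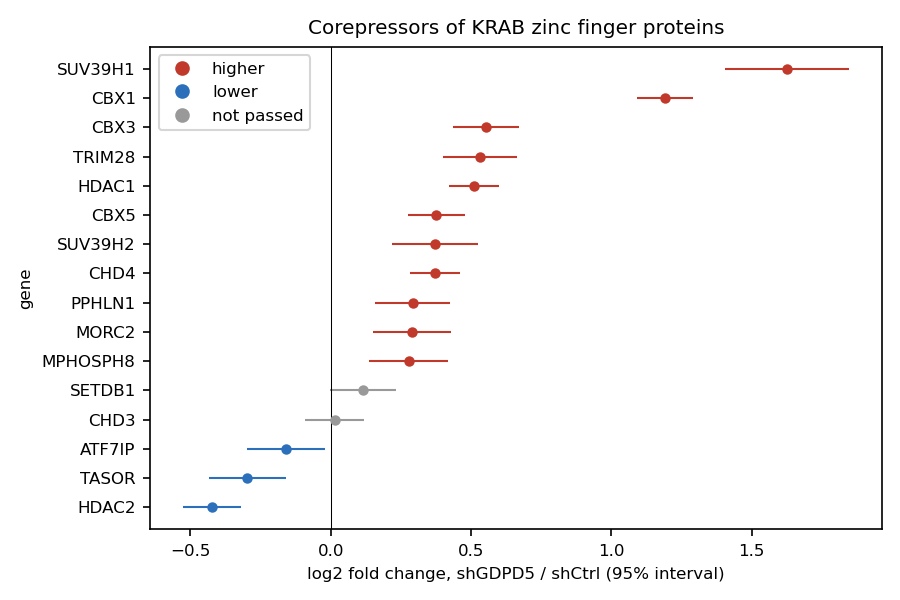
Log2 fold change (shGDPD5 over shCtrl, x axis) with 95% interval from edgeR for each of the 16 corepressor genes (y axis). SUV39H1 and CBX1 lie furthest above 0, and HDAC2, TASOR and ATF7IP are the 3 genes that passed below it.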

How the data were processed

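RNA-seq was analysed for 6 HCT116 libraries, 3 per group. Estimated counts per gene were deposited as 1 table by the authors, and its aligner, counter, genome build and use of strand were not given in the sources used. The counts were rounded to whole numbers (a change of at most 0.5), and filterByExpr of edgeR 4.0.16 in R 4.3.3 (minimum count 10) left 16755 genes. TMM scaling and the quasi-likelihood test followed, with Benjamini-Hochberg adjustment over all tested genes and no further terms. The fit was also run on simulated counts with known changes. Far fewer genes were changed there than were called here, so that run does not cover this setting. Symbols, positions and coding sequences came from GENCODE release 29, and coding sequences were translated for finger and KRAB letters because no protein table was at hand. Promoters came from RefSeq on GRCh38.p14.

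Named genes were the 10 higher and 10 lower members of largest absolute log2 fold change (adjusted p under 0.05, mean CPM at least 1, groups not overlapping), the 5 most abundant, the 4 most abundant that did not pass, and 17 members of known role. Other called members are named where their block is described, and these were chosen after their values were seen. The members, lists and blocks were chosen with earlier results of these data known. The alternatives were other scaling factors, DESeq2 1.42.0, limma-voom (limma 3.58.1), the study's kind of per-gene test on log2(CPM + 1), 2 other filters, a replicate block, other block gaps and each library left out.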

Additional observations from a re-analysis of the deposited data

How the results depend on the processing

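All calls kept their direction: under no fit did a member called higher become called lower or the reverse. DESeq2 called 25 members higher and 42 lower, and a library left out gave 29 to 42 higher and 45 to 48 lower. Replicate numbers did not pair the libraries (correlations of deviations of -0.07, -0.05 and -0.04), and the replicate block gave 35 higher and 46 lower. In block 5, 10 to 12 members were called higher and 0 lower under every fit, and in block 9, 5 to 8 lower and 0 higher. Of the corepressors 11 were higher and 2 or 3 lower under every fit. The median log2 fold change of all tested members was -0.024 to 0.061 with a library left out, the latter without shCtrl 3. That of block 5 was 0.49 without a filter and 0.48 to 0.59 with a library left out. The thresholds of the study gave 7 members higher without a filter and 1 lower with 10 counts required in every library. Leaving out a library gave 2 to 5 higher, with 5 without shCtrl 1, and 2 to 5 lower, with 2 without shGDPD5 2. A gap of 2 Mb gave 9 blocks in place of 16. The cause of these shifts was not tested.

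Signs turned for values near 0 that were not called. Without a filter ZNF121 was at -0.0041 and CHD3 at -0.0014 on the log2 scale. With a library left out ZNF121 ran from -0.038 to 0.077, ZNF83 from -0.163 to 0.037, ZNF264 from -0.090 to 0.019, ZNF304 from -0.014 to 0.098 and CHD3 from -0.012 to 0.028. For 51 genes, the members picked by size, CPM or role and the corepressors, 674 of 713 values under alternatives kept direction and call, 25 lost the call and 3 gained it. Over all 83 called members, 21 of 37 higher and 38 of 46 lower members kept the call in every fit that gave an adjusted p. ZNF616 lost it in 9 fits, ZNF91 in 8, and ZNF552 and ZNF845 in 7. Depth limits the precision for members under about 1 CPM, and members that share exon sequence remain uncertain.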
